A study of Mus musculus with 8 samples.

Results

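The cells described here are the cycling epithelial cells of mouse small intestinal organoids, 482 of the 2051 barcodes in 2 single-cell RNA libraries and of the 28486 barcodes in the 8 libraries of the series. Organoids are small epithelial cultures grown from crypts. A barcode was kept with at least 500 detected genes and at most 20% of its unique molecular identifiers (UMIs, the molecules counted) from mitochondrial genes. A kept cell was called cycling with at least 20 UMIs of Mki67 and Top2a together and with Ly6d, Clu, Anxa1 and Sprr1a, genes of a regenerative epithelial state, below 5 per 10000 UMIs. The cells were thus chosen by their own measured UMIs of those 6 genes. The control library gave 154 such cells and the coculture library 328.

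Both cultures were C57BL/6 small intestinal organoids at passage 1, labelled CTRL or COCULTURE. The epithelial fraction was sorted after 16 wells of a condition were pooled, 100000 cells from each. Each condition was therefore 1 library, with no replicate check and no test between conditions. The labels do not name the coculture partner. By its title the series deals with the lymphatic interactome of stem cells. The series text speaks of both samples as pooled for the 10x run, whereas the counts came as 1 matrix per condition, and the matrices shared 0 barcodes. The other 6 libraries of the series (sorted tissue and Visium sections) were not analysed here.

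In the intestinal crypt, stem cells at the base divide and give rise to transit-amplifying cells, which divide a few more times before they leave the cycle as enterocytes or as secretory cells. A dividing cell copies its DNA in S phase, when E2F factors drive the genes of the replication machinery and histone genes are transcribed in bulk. In G2 and mitosis (M) a further program, driven in part through promoter elements known as CHR, supplies the cyclins, kinases and spindle proteins of division. Mki67 encodes a protein that coats mitotic chromosomes and Top2a the topoisomerase that untangles replicated DNA.

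The rule selected 154 of 540 kept control cells and 328 of 1037 kept coculture cells. Of the kept cells, 91 in the control and 35 in coculture were at or over the regenerative limit, and 2 and 0 of those had 20 or more Mki67 and Top2a UMIs. The cycling cells had a median of 117202 UMIs in the control (34454 to 387180) and of 124062.5 in coculture (28718 to 454307), against 63270 and 73998.5 in the other kept cells, those below the regenerative limit with under 20 Mki67 and Top2a UMIs. Because the cut is in raw UMIs, a deeper cell meets it more easily. Median mitochondrial shares were 5.88% and 4.99%, and the cycling cells together held 21438323 and 47528608 UMIs. Just outside the cut, 13 control and 22 coculture cells had 15 to 19 UMIs. Just inside it, 13 and 9 cells had 20 to 24. The cells just outside had median S phase list levels (described below) of 29.6 and 37.7 per 10000, against 26.1 and 23.5 in the cycling cells, so the other kept cells are not all cells outside the cycle.

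**Figure D1:**
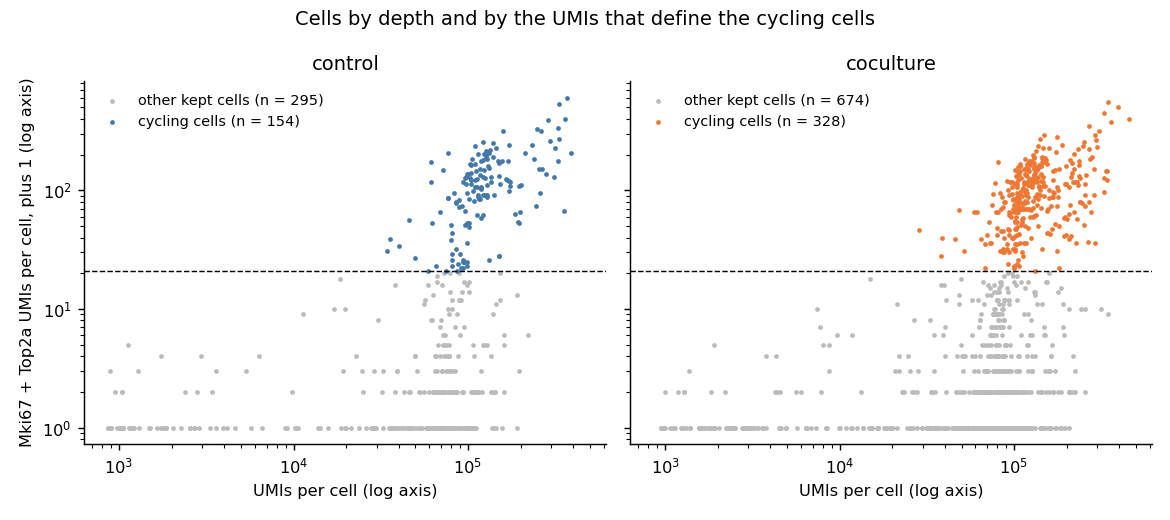
Each point is a kept cell below the regenerative limit, by its UMIs (x, log axis) and its Mki67 and Top2a UMIs plus 1 (y, log axis), with the control left and coculture right. The dashed line is the cut of 20 UMIs, and the 154 control and 328 coculture cycling cells above it lie toward the deep side of both libraries.

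The cells carried the other markers of the class, Cdk1 (the kinase that starts mitosis) and Hist1h1b (a linker histone made in S phase). Cdk1 was seen in 100% of the cycling cells of both libraries, with a median of 1.91 per 10000 UMIs in the control and 2.16 in coculture. Hist1h1b was seen in 96.8% and 98.2% of them, with medians of 7.03 and 7.24 per 10000 and highest cells at 36.1 and 34.9. Cells with little Hist1h1b were present in both libraries. Epithelial markers were present in every cycling cell, with 21.2 per 10000 summed over Epcam, Krt8, Krt18, Cdh1 and Cldn7 in the lowest control cell and 19.7 in the lowest coculture cell. Markers of other tissues were at or near 0. Of 9 endothelial and lymphatic markers, Cdh5, Flt4, Ccl21a, Mmrn1, Pdpn and Reln had 0 UMIs in the cycling cells of both libraries, Prox1 had 0 and 4, Pecam1 had 2 and 2, and Lyve1 had 27 and 96. The fibroblast and muscle list stayed at 0 in 152 of 154 control and 325 of 328 coculture cells, and the immune list at 0 in 150 and 320, with Ptprc at 0 in both.

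Cycling cells made up like shares of the 2 libraries. Below the regenerative limit they were 34.3% of the control cells (154 of 449, exact 95% binomial interval 29.9 to 38.9) and 32.7% of the coculture cells (328 of 1002, 29.8 to 35.7). The difference of coculture from control was -1.56 percentage points (95% Newcombe interval -6.89 to 3.61), and of all kept cells it was 3.11 points (-1.71 to 7.77), from 28.5% and 31.6%. All intervals given here cover counting error only and not the spread between cultures. In cells with at least 50000 UMIs the shares were 45.4% and 40.6%. A difference in cycling share was not detectable at this number of cells.

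Each cycling cell was placed in an S part or a G2/M part. The UMIs per 10000 of an S phase list (43 genes) and a G2/M list (52 genes, with Mki67 and Top2a left out) were each divided by their mean over the kept cells after 1 was added to both. A cell joined the part whose ratio was higher. The S part held 68 of 154 control cells, 44.2% (36.2 to 52.4), and 116 of 328 coculture cells, 35.4% (30.2 to 40.8). The coculture share was lower by a difference of -8.79 percentage points, with a counting interval (-18.1 to 0.490) that reached just past 0. The parts are ranges of 1 continuous index and not separate cell types, and 25 control and 62 coculture cells (16.2% and 18.9%) lay within 0.5 log2 units of the line. When the index was divided into 4 bins of about equal size over both libraries, bin 1, at the S end, held 31.2% of control and 22.3% of coculture cells, and bin 4 held 21.4% and 26.8%. Median UMIs in bin 1 were 100035 and 104438.

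**Figure D2:**
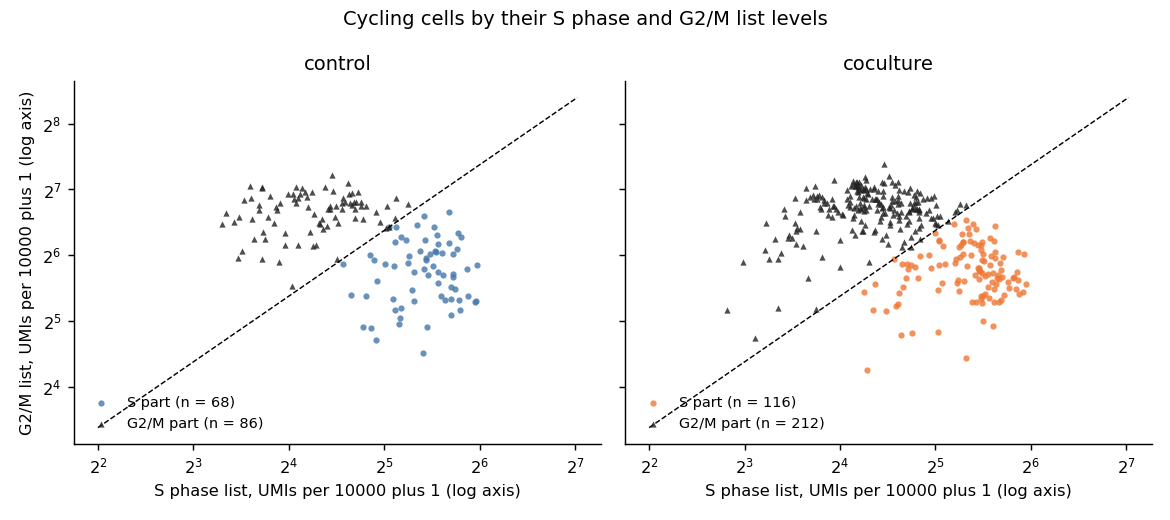
Each point is a cycling cell, by its S phase list level (x) and its G2/M list level (y), both in UMIs per 10000 plus 1 on log axes, with the control left and coculture right. Circles are the S part (68 and 116 cells), triangles the G2/M part (86 and 212 cells), the dashed line is the border, and cells lie along it as well as on either side.

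The split was checked on genes that it did not use. Ratios of levels below are log2 ratios of CPM, in which a gene's count is divided by all UMIs of the group's cells and scaled to a total of 1000000. A count under 3 was set to 3, genes with at least 50 UMIs in both groups together were counted, and a gene past the fold had a ratio of at least 1 or at most -1. Of 20 further mitosis genes, 8 were past the fold upward in the G2/M part over the S part in the control (median 0.81), where 1.2% of all counted genes were, and 1 was past it downward, where 1.44% were. In coculture 11 of them were past it upward (median 1.07, against 1.09% of all genes) and 0 downward (1.68%). Of 18 further replication genes, 7 were past the fold downward in the control (median -0.97) and 5 in coculture (median -0.83), with 0 upward in both. Cdc25b, the phosphatase that switches on Cdk1, had the highest ratio of the mitosis genes in both libraries, 2.66 and 2.13. Ccne1, the cyclin E that opens S phase, was at -3.06 and -2.55. Fbxo5, an inhibitor of the anaphase-promoting complex, was the exception among the mitosis genes at -1.03 and -0.95.

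Along the 4 bins both libraries ran through the same order. Ccne1 went from 67.6 CPM in bin 1 to 29.8, 7.26 and 1.01 CPM in the control, and from 73.8 to 35.4, 9.03 and 1.38 CPM in coculture. Pcna, the sliding clamp of DNA polymerase, went from 333 to 65.2 CPM and from 322 to 83.6 CPM between bins 1 and 4. Ccnb1, the cyclin of mitotic entry, ran the other way, from 23.6 to 184 CPM in the control and from 28.3 to 168 CPM in coculture. The level of Cdc20, which activates the anaphase-promoting complex, ended at 210.4 CPM in the control and 209 CPM in coculture. Pcna and Cdc20 are in the lists that made the index, so the binning fixes much of their order, while Ccne1 and Ccnb1 are not. In bin 4 the counting intervals of Pcna did not overlap between the control (57.5 to 73.7 CPM) and coculture (78.6 to 88.9 CPM).

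Promoters of the genes that follow the 2 phases carried different letters. Sequences are from RefSeq on the GRCm38.p6 build, from 250 bases before to 50 after a gene's start, searched on both strands. TTTGAA, the core of the CHR element, was in 64% of the promoters of the G2/M list (32 of 50, for 45 of 52 genes) and 68.8% of those of the further mitosis genes (11 of 16). It was in 17.6% for the S phase list and 5.56% for the further replication genes, against 17.9% of all 32851 promoters. The E2F letters TTCCCGC or TTTGGCG were in 50% of the S phase list promoters (17 of 34, for 31 of 43 genes) and 66.7% of the further replication promoters (12 of 18). They were in 8% for the G2/M list and 6.25% for the further mitosis genes, against 5.99% of all promoters. The letters CCAAT were common in both programs, in 74% of G2/M list and 67.6% of S phase list promoters against 37.4% of all. A match is a description of the letters and not a site shown to be bound. No histone promoter was matched in the table.

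The 30 bases around the match are shown for 3 replication and 3 mitosis genes that had a match and large differences in level between the parts. These are genes the split did not use. The mitosis genes ranked 3, 5 and 6 in their list by that difference, so mitosis genes that differed more are not shown. Capitals mark the match, as written on the strand of the gene.
Cdt1: gcgcggaatccGCGGGAActacctttttgg
Mcm3: aaacttccgtgGCGGGAAaacttgggaagt
Rfc3: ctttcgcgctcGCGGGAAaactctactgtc
Plk1: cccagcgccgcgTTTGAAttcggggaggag
Prc1: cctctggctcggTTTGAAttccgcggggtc
Kif22: gggccccggtaaTTCAAAagagagaagcgg
Cdt1 (chr8:122568022-122568051, plus strand), which licenses origins, had a G2/M over S ratio of -1.62 in the control and -1.74 in coculture. Mcm3 (chr1:20820275-20820304, minus strand), a subunit of the replicative helicase, was at -1.65 and -1.63. Rfc3 (chr5:151651190-151651219, minus strand), part of the clamp loader, was at -1.51 and -1.40. Among the mitosis genes, Plk1 (chr7:122159453-122159482, plus strand), a kinase of mitotic entry, was at 1.28 and 1.56. Prc1 (chr7:80294434-80294463, plus strand), which bundles the central spindle, was at 1.24 and 1.36, and Kif22 (chr7:127042420-127042449, minus strand), a chromosome-binding kinesin, at 1.15 and 1.39. For all 6 the ratio had the same sign in both libraries, which follows in part from their choice by the mean ratio of both.

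Coculture was next compared with control inside the cycling set. The median ratio of coculture to control over 11340 counted genes was -0.08, and 1.01% of them were past the fold upward and 1.3% downward. Ratios are to be read against that median. The genes of the cycle itself differed little. The S phase list had a median of -0.19 (43 of 43 counted, 0 past the fold), from -0.50 for Wdr76 to 0.21 for Gins2, a subunit of the helicase complex. Pcna was at 213 and 184 CPM (-0.20, counting interval -0.26 to -0.15) and Mcm5, a helicase subunit, at 75.6 and 59.6 CPM (-0.34, -0.43 to -0.25). The G2/M list had a median of 0.04 (52 of 52 counted, 0 past the fold), from -0.35 for Gas2l3 to 0.40 for Cdc20. Ube2c, the ubiquitin-conjugating enzyme of the anaphase-promoting complex, was at 573 and 726 CPM (0.34, 0.31 to 0.37), and Aurka, a spindle kinase, at 80.8 and 106 CPM (0.39, 0.31 to 0.47).

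Within the phase parts the lists had other medians. The S phase list was at -0.06 in the S part and -0.03 in the G2/M part, where the medians of all genes were -0.05 and -0.07. The G2/M list was at -0.15 in the S part (51 counted, 15 above and 36 below 0) and -0.05 in the G2/M part (20 above and 32 below 0), with 0 genes past the fold in either. With both parts weighted equally in each library, a setting added after the data were seen, the S phase list was at -0.06 and the G2/M list at -0.06. The sign of the G2/M list median therefore depends on the weighting, and the median was 0.11 with median-of-ratios scaling. Since the parts were cut on these lists, the further genes are the independent reading. The 18 further replication genes had medians of -0.13 in all cycling cells, -0.04 in the S part and 0.06 in the G2/M part. The 20 further mitosis genes had medians of 0.04, -0.12 and -0.04, all with 0 genes past the fold. Gins3 was the lowest replication gene in all cycling cells (-0.71) and Plk1 the highest mitosis gene (0.32).

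The rule genes themselves were lower in the coculture cells, which is a description since they chose the cells. Mki67 had a median of 3.27 per 10000 in the control and 2.43 in coculture, and Top2a 5.14 and 4.61. Summed over cells, Mki67 was at 358 and 283 CPM and Top2a at 540 and 448 CPM. Both lay lower in coculture in every bin of the phase index. Mki67 was at 228 and 150 CPM in bin 1 and at 406 and 320 CPM in bin 4.

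Replication-dependent histone genes were lower in coculture in both phase parts. These genes supply the histones that package new DNA, and most of their mRNAs end in a stem-loop rather than a poly(A) tail. Of 67 genes, 55 were counted, 0 were past the fold upward and 5 downward, and the median was -0.54. In the S part the median was -0.49 (49 counted, 0 and 3 past the fold, where 1.19% of all genes were upward and 0.875% downward), and in the G2/M part -0.51 (51 counted, 0 and 2, against 0.881% and 1.33%). Summed, the list went from 5593 to 4329 CPM. The median cell held 56.1 per 10000 in the control (1.31 to 153) and 48.3 in coculture (1.58 to 125), so the cells of both libraries overlapped over most of the range. Hist1h2ap, the most abundant, was at 2100 and 1600 CPM (-0.39, -0.41 to -0.38). Hist1h3c, an H3 gene, was at 177 and 105 CPM (-0.75, -0.81 to -0.69). Hist1h1b was closer, at 895 and 811 CPM (-0.14, -0.17 to -0.12), and Hist1h4i lay above 0 (0.27, 0.08 to 0.47). In bin 1 of the phase index Hist1h2ap was at 2398 and 1863 CPM, and in bin 4 at 1171 and 1107 CPM. Hist1h1b was lower in coculture in bin 2 (1027 and 870 CPM), higher in bin 3 (710 and 804 CPM) and close in bins 1 and 4. Many histone genes are near-identical copies, so the split of reads among single members is uncertain, and so may be the sum where reads that fit several copies were not counted.

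Of the G1, brake, DNA repair and p53 lists, 0 counted genes were past the fold over all cycling cells. The 13 G1 cyclins, kinases and E2F genes had a median of -0.15 with 0 past the fold, from Cdk6 (-0.54) to Ccnd3 (0.26). Ccnd1, a Wnt-responsive cyclin D, was at 112 and 100.5 CPM, and Ccnd2 at 229 and 255 CPM. The 13 brakes had a median of -0.18 (12 counted, 9 below 0, 0 past the fold). Cdkn1a, the p21 inhibitor, was at 73.6 and 97.8 CPM (0.41, 0.33 to 0.49). Its ratio was 0.93 in the S part (0.79 to 1.06) and 0.09 in the G2/M part (-0.02 to 0.19). Along the phase bins its levels in control and coculture were 50.5 and 93.4 CPM in bin 1, 79.5 and 108 CPM in bin 2, 92.0 and 71.4 CPM in bin 3, and 74.8 and 115 CPM in bin 4. Coculture was thus the higher in bins 1, 2 and 4 and the lower in bin 3, and the G2/M value averages over unlike bins. In the control 17 cells held 50% of its UMIs, and in coculture 38 did. The 10 DNA repair genes, which act at broken or stalled forks, were all below 0 over all cycling cells. Their median was -0.28 with 0 past the fold, where the median of all genes was -0.08. Within the parts their medians lay nearer those of all genes. They were -0.15 in the S part (8 below 0) and -0.20 in the G2/M part (9 below 0), against -0.05 and -0.07 for all genes. How far the smaller S part of coculture accounts for the value over all cycling cells was not tested. The 13 p53 targets had a median of 0.06 in all cycling cells. In the S part it was 0.28 (12 counted, 9 above 0, 1 past the fold, Gdf15 at 2.04) and in the G2/M part -0.22 (12 counted, 9 below 0, 0 past the fold). The difference between the parts was not tested. Glycolysis and hypoxia genes were at -0.11, sterol synthesis genes at -0.11, integrated stress genes at -0.09 and immediate-early and heat shock genes at 0.01, with 2 genes of these 4 lists past the fold, Slc7a11 (-1.13) and Fosb (-1.56).

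**Figure D3:**
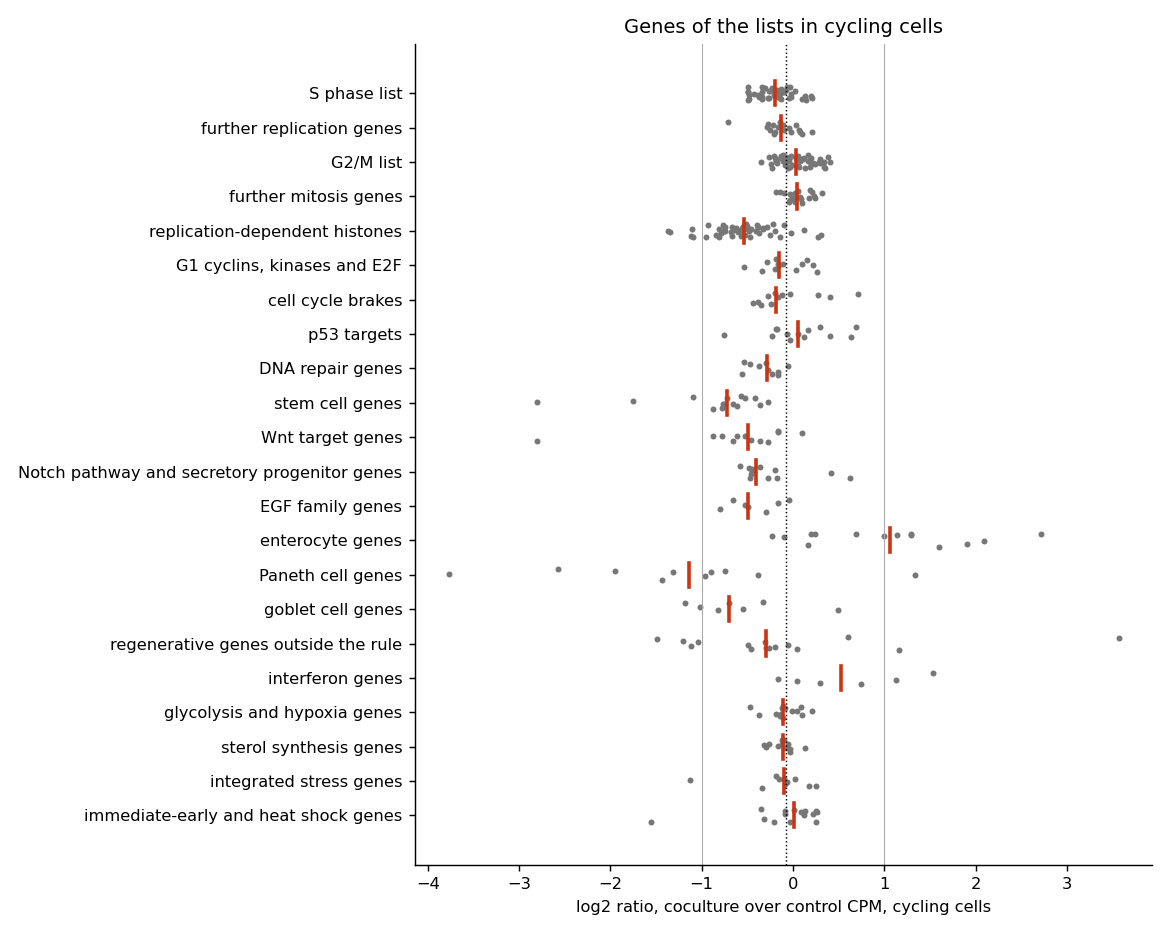
Each grey point is a counted gene of a list, by its log2 ratio of coculture to control CPM in cycling cells (x), and the red bar is the list's median. The dotted line is the median of all 11340 genes (-0.08) and the grey lines are the fold limits, and the cell cycle lists lie close to the dotted line while enterocyte genes lie to its right and histone, stem cell and Paneth cell genes to its left.

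Genes of the crypt base were lower in the coculture cycling cells. The stem cell list had a median of -0.72 (15 of 16 genes counted, 0 past the fold upward, 3 downward), and all 15 were below 0. Their counting intervals did not reach 0, but such intervals are narrow at this depth. Those of 28 of the 43 S phase list genes also lay wholly below 0, and those of 3 wholly above it. Lgr5, the R-spondin receptor that marks crypt base stem cells, had 196 UMIs in 154 control cells (9.14 CPM) and 62 UMIs in 328 coculture cells (1.30 CPM), a ratio of -2.81 (-3.25 to -2.39). It was seen in 33.8% of control and 8.54% of coculture cells. After each cell was thinned to 10000 UMIs these shares were 8.44% (4.57 to 14.0) and 1.22% (0.333 to 3.09). In kept cells with high enterocyte markers, which should lack Lgr5, the thinned shares were 0 of 69 cells in the control (interval up to 5.21%) and 0 of 221 in coculture (up to 1.66%). Unthinned, a UMI of Lgr5 was seen in 0% and 0.806% of those cells, whose median depths were 68197 and 80417 UMIs. The thinned coculture share rests on 4 cells, and at that depth it could not be told from the enterocyte marker cells. In kept cells high in Paneth markers and not cycling, Lgr5 was seen more often, in 55.6% of 9 control and 29.2% of 24 coculture cells (thinned, 50% of 8 and 21.7% of 23).

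Other members of the list were measured at higher depth. Slc12a2, an ion transporter of crypt cells, had quartiles of 3.68, 5.70 and 8.23 per 10000 in the control and 1.95, 3.34 and 4.77 in coculture (612 and 363 CPM, ratio -0.75). Sox9, a transcription factor of crypt progenitors, had medians of 0.981 and 0.538 per 10000 (-0.76), and Axin2, a direct Wnt target, 0.477 and 0.237 (-0.78). The cells of both libraries overlapped in part for each of these genes, with the coculture cells lower as a group. For Slc12a2 the coculture median lay below the lower quartile of the control cells. Smoc2 was closer, at 204 and 154 CPM (-0.41), and Ascl2, a stem cell transcription factor, at 26.1 and 20.3 CPM (-0.36). Olfm4, a secreted crypt base glycoprotein, was uneven between cells: its upper quartile was 2.90 per 10000 in the control and 0.687 in coculture, while 14 control and 18 coculture cells held 50% of its UMIs. Summed over the list, the median cell had 13.9 per 10000 in the control (2.18 to 55.6) and 7.998 in coculture (1.35 to 51.7).

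The stem cell list was lower in coculture in both phase parts and in the other kept cells. The list median was -0.62 in the S part and -0.75 in the G2/M part, and -0.81 in the other kept cells (15 counted, 0 upward and 3 downward, where 1.81% of all genes were past the fold upward and 2.36% downward). Lgr5 was at -2.40 in the S part, -3.07 in the G2/M part and -1.54 in the other kept cells. In the 4 bins of the phase index Lgr5 lay between 7.33 and 12.1 CPM in the control and between 0.6502 and 1.97 CPM in coculture, with no overlap, and Slc12a2 between 539 and 634 CPM and between 282 and 409.6 CPM, also with none. Wnt targets, 11 of 12 counted genes below 0, had a median of -0.49. This list shares 8 counted genes with the stem cell list. Myc, at 0.10, was the exception. Notch pathway and secretory progenitor genes had a median of -0.40 (12 of 13 counted, 0 past the fold), with Hes1, the effector of Notch signalling, at 156 and 113 CPM (-0.47). The EGF family list had a median of -0.50 (7 of 10 counted), with Egfr at -0.66 and the ligand Btc at -0.80. Areg, another ligand, was at 1.09 in the S part and -0.77 in the G2/M part, with 4 control cells holding 50% of its UMIs.

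Enterocyte genes were higher in the coculture cycling cells. Of 14 genes, 14 were counted, 7 were past the fold upward and 0 downward, and the median was 1.07. Fabp1, the liver-type fatty acid-binding protein, had quartiles of 0.454, 1.69 and 4.28 per 10000 in the control and 1.70, 5.58 and 15.2 in coculture, with highest cells at 92.3 and 154. The coculture median thus lay above the upper quartile of the control cells. Summed, Fabp1 was at 650.1 and 1595 CPM (1.29, 1.27 to 1.32), and its ratio was 1.34 in the S part and 1.29 in the G2/M part. Fabp2, the intestinal form, had medians of 0.994 and 2.24 per 10000 (1.14, 1.08 to 1.19). Sis, the brush border sucrase-isomaltase, had medians of 0.0311 and 0.165 (1.60, 1.47 to 1.73). Some members did not share the difference: Alpi, the brush border phosphatase, was at 0.20, Vil1, an actin bundler, at -0.10 and Krt20, a keratin of mature cells, at -0.23.

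The level was far under that of cells high in enterocyte markers, where Fabp1 had medians of 124 and 139 per 10000. Lower levels were seen in cells of another type. In the kept cells high in Paneth markers and not cycling (9 control, 24 coculture), Fabp1 had medians of 0.479 and 1.18 per 10000 and Fabp2 0.411 and 1.28, all below the cycling cells of the same library. The part of free RNA in the difference was not tested. Apoa1 and Apoa4, apolipoproteins of lipid export, had higher summed levels in coculture (2.09 and 1.90), but their median cells were at 0.197 and 0.257 per 10000 and at 0.163 and 0.156, no higher than in the Paneth marker cells (0.359 and 0.833 for Apoa1, 0.179 and 0.443 for Apoa4). For both genes the difference rested on few cells, since 5 coculture cells held 50% of the Apoa1 UMIs and 4 of the Apoa4 UMIs.

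Summed over the 14 genes, the median cycling cell had 9.65 per 10000 in the control (3.13 to 129) and 15.6 in coculture (5.22 to 299). Cells with at least 10 per 10000 of the enterocyte markers Fabp1, Alpi, Apoa4 and Krt20 were 37 of 154 in the control, 24.03% (17.5 to 31.6), and 140 of 328 in coculture, 42.7% (37.3 to 48.2), a range set after the values were seen. Their median depths, 121867 and 129772.5 UMIs, were close to those of all cycling cells. The list median was 1.10 in the S part and 0.78 in the G2/M part. In the other kept cells it was 0.11, with Fabp1 at 0.42. With the cells of the highest Scrublet doublet scores removed, the list median in cycling cells was 1.06.

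**Figure D4:**
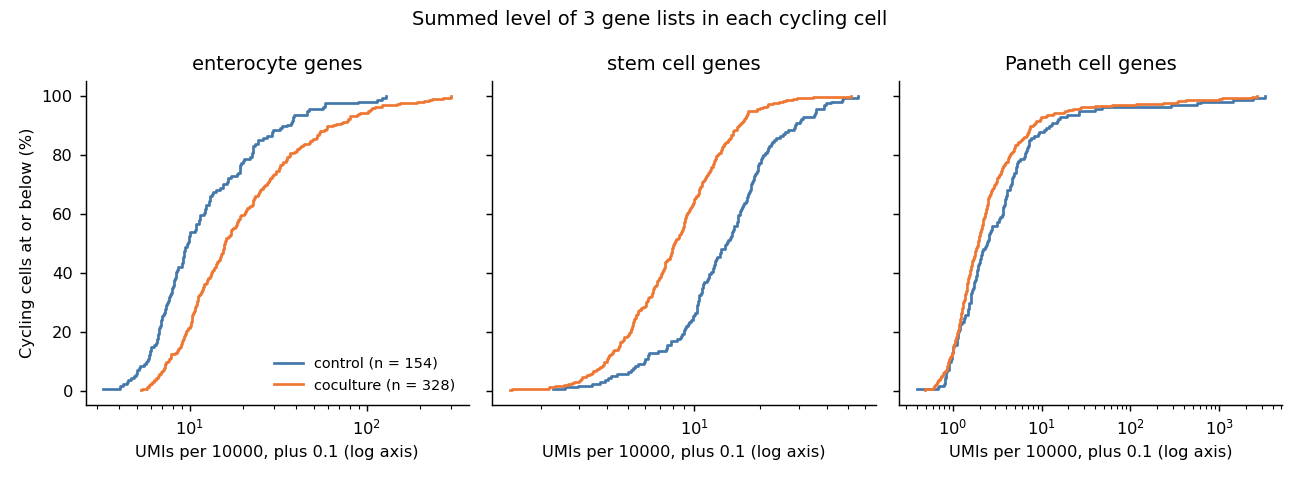
Each line gives the share of cycling cells (y, percent) at or below a summed level of the enterocyte, stem cell or Paneth cell list (x, UMIs per 10000 plus 0.1, log axis), for 154 control and 328 coculture cells. The coculture line lies to the right for enterocyte genes (medians 9.65 and 15.6) and to the left for stem cell genes (13.9 and 7.998), and for Paneth cell genes the lines lie closer (medians 2.33 and 1.82), with a few cells of both libraries far to the right.

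Most UMIs of the secretory genes lay in few cells. The Paneth cell list had a median of -1.14 (10 of 11 counted, 1 past the fold upward, 5 downward), and Lyz1, the Paneth lysozyme, was at 927 and 155 CPM (-2.58, -2.62 to -2.54). The gene past the fold upward, Defa22, was at 1.33, and at -2.28 without the cell that held most of its UMIs in each library. The median cell for Lyz1 was at 0.101 and 0.0899 per 10000, and 2 control and 2 coculture cells held 50% of the Lyz1 UMIs. In cells high in enterocyte markers Lyz1 was at 0.107 and 0.0620 per 10000. The part of free RNA in these low levels was not tested. The 9 control and 13 coculture cycling cells with at least 10 per 10000 of Lyz1, Defa24 and Mmp7 held 95.4% and 91.5% of the UMIs of the Paneth list. They were 5.84% (2.71 to 10.8) and 3.96% (2.13 to 6.68) of the cycling cells, with median depths of 172167 and 127230 UMIs. Whether they are dividing cells of the secretory line or barcodes with 2 cells was not tested. Goblet cell genes had a median of -0.70 (7 of 8 counted, 0 upward, 2 downward), with Muc2, the gel-forming mucin, at -1.02. In the other kept cells the ratios of summed levels lay the other way for both lists, though they too rested on few cells. There 2 control and 5 coculture cells held 50% of the Paneth list UMIs, and 3 and 10 cells held 50% of the goblet list UMIs. The median cell was lower in coculture for the Paneth list (2.49 and 1.65 per 10000) and close for the goblet list (0.707 and 0.754). The Paneth median there was 1.44 (11 counted, 10 above 0, 6 past the fold upward and 0 downward; 6433 and 12158 CPM), and the goblet median was 0.74 (8 counted, 8 above 0, 3 past the fold upward and 0 downward; 2539 and 3833 CPM). With the 17 control and 24 coculture cells high in Paneth or goblet markers left out, a setting added after the data were seen, the Paneth median was 0.14, Lyz1 was at 0.04 and the goblet median was 0.28, so the sign of the list medians rests on those cells. Some members stayed lower without them: Mmp7, the Paneth matrix metalloprotease, was at -2.01 (-1.32 with all cells), Tff3, a goblet trefoil peptide, at -0.44 and Muc2 at -0.39. Mmp7 was seen in 46.1% of control and 26.2% of coculture cycling cells, and thinned to 10000 UMIs in 22.1% (15.8 to 29.5) and 9.45% (6.51 to 13.1). The enterocyte median was then 1.01, the stem cell median -0.66 and the histone median -0.58. Defensins are near-identical copies, and values of single members are uncertain.

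Enteroendocrine genes were barely present. Of 9 genes 3 were counted, Chga, Chgb and Cck, all past the fold upward, and summed over the list they were at 2.15 and 6.77 CPM. Cck, a gut hormone, had 7 and 113 UMIs, seen in 27.1% of the coculture cycling cells and in 29.2% of that library's 24 Paneth marker cells, at median depths of 124062.5 and 71606.5 UMIs. In the other kept cells Cck was higher in coculture as well (1536 and 19867 UMIs). No tuft cell gene reached the minimum count, and of the class II antigen presentation genes 1 of 5 did (H2-Ab1, -0.49, interval reaching 0).

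Of the regenerative genes that the rule did not use, 15 of 21 were counted, with 2 past the fold upward, 4 downward and a median of -0.30. Emp1 was at -1.20, Cldn4 at -1.12 and Anxa3 at -1.04. Tm4sf4 was at 1.16 and Msln at 3.57, the latter from 3 and 79 UMIs. Cldn4 was at 0.04 in the S part and -1.89 in the G2/M part. In the other kept cells the list median was -1.35, with 10 genes past the fold downward and 0 upward. Among interferon genes 6 of 10 were counted, with a median of 0.52, and Isg15 (45 and 288 UMIs, 1.53) and Irf7 (52 and 252 UMIs, 1.13) were past the fold. Of the coculture Isg15 UMIs, 4 cells held 50%. In coculture Irf7 was seen in 37.5% of cycling cells and 54.2% of the 24 Paneth marker cells, and Isg15 in 22.3% and 20.8%. Thinned to 10000 UMIs, these shares were 4.57% and 26.1% for Irf7 and 3.66% and 8.70% for Isg15. The part of free RNA in the difference was not tested.

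Genes were also ranked by ratio where the higher library had at least 100 UMIs and a UMI in at least 10% of its cells. The 11 highest were Sult1a1, Cyp2b10, Slc6a19, Leap2, Apoc3, Cck, Ggt1, Spink1, Isx, Hsd17b6 and Dpep1. Their ratios ran from 3.91 (Sult1a1, 3 and 100 UMIs, interval 2.32 to 6.21) to 2.28 (Dpep1). Cells thinned to 10000 UMIs gave lower ratios for several of them, with Hsd17b6 (2.46) at -0.68, Dpep1 at 0.32, Sult1a1 and Cck at 0.49 and Ggt1 at 0.91. Few UMIs of these genes were left at that depth, and setting counts under 3 to 3 lowers such ratios. Cck, for example, was then seen in 1 control and 9 coculture cells. The thinned ratios of these genes are therefore not measures of the difference. For Cyp2b10 (3.78), 4 coculture cells held 50% of the UMIs. Slc6a19, the neutral amino acid transporter of the brush border, went from 17 to 369 UMIs (3.29, 2.59 to 4.09), and was seen in 31.4% of coculture cycling cells and in 8.33% of the Paneth marker cells of that library. Isx, an intestinal homeobox factor, went from 37 to 457 UMIs (2.48, 1.993 to 3.003), with a UMI in 8.44% of control and 50.9% of coculture cells, against 8.33% in the Paneth marker cells. Thinned to 10000 UMIs, these shares were 0 and 6.10% for Slc6a19 and 1.30% and 5.18% for Isx in control and coculture cycling cells, and 0 of 23 coculture Paneth marker cells had either gene (interval up to 14.8%), so at that depth they could not be told apart. The unthinned shares compare median depths of 124062.5 and 71606.5 UMIs. The UMIs of Isx were spread, with 42 coculture cells holding 50%. In contrast Leap2 (39.0% of coculture cycling cells, 41.7% of Paneth marker cells) and Apoc3 (44.5% and 50.0%) were seen no more often than in the Paneth marker cells, and 5 and 4 coculture cells held 50% of their UMIs. In the other kept cells the ratios of these 11 genes ran from 0.12 for Ggt1 to 2.23 for Cck. Since the genes were taken for their high ratios in cycling cells, lower ratios in another set of cells follow in part from that choice.

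**Figure D5:**
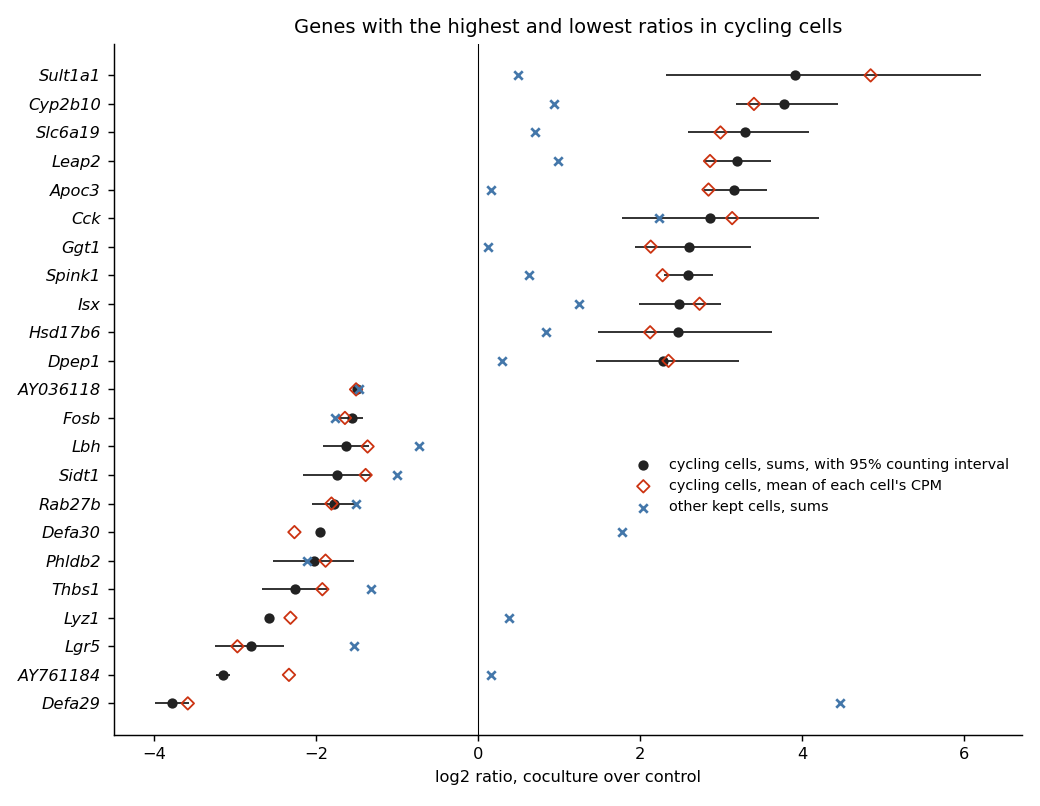
Genes with the 11 highest and 12 lowest log2 ratios of coculture to control (x) in cycling cells. Black points are ratios of summed CPM with 95% counting intervals, red diamonds give each cell equal weight (ratios of mean CPM per cell) and blue crosses the ratio in the other kept cells, which lie nearer 0 for most genes, in part because the genes were taken for their ratios in cycling cells. The crosses of Phldb2, Fosb and Defa29 lie farther from 0, and those of Defa29, Defa30, Lyz1 and AY761184 lie on the other side of it.

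The 12 lowest were Defa29, AY761184, Lgr5, Lyz1, Thbs1, Phldb2, Defa30, Rab27b, Sidt1, Lbh, Fosb and AY036118. Defa29, AY761184, Lyz1 and Defa30 rested on 1 or 2 control cells that held 50% of the UMIs, and Thbs1 (171 and 79 UMIs) on 1. Rab27b, a GTPase of vesicle secretion, was spread over more cells. It had 290 and 187 UMIs (-1.78, -2.05 to -1.51), was seen in 66.9% and 32.0% of cycling cells, and was at -1.62 in the S part, -1.87 in the G2/M part and -1.51 in the other kept cells. Thinned to 10000 UMIs, Rab27b was seen in 13.6% and 1.83% of cycling cells. In cells high in enterocyte markers it was then seen in 10.1% and 3.17%, with overlapping intervals in both libraries. Fosb, an immediate-early AP-1 factor, had medians of 0.203 and 0.0358 per 10000 (-1.56) and was at -1.76 in the other kept cells. Phldb2 was at -2.03 and -2.11 in the 2 sets of cells. For these 3 genes the ratios in cycling cells and in the other kept cells were close. AY036118 was at 253 and 89.9 CPM (-1.49), and at -1.47 in the other kept cells.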

How the data were processed

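The deposited values were UMI counts per gene and barcode, made by the authors with Cell Ranger 6.0.1 on mm10, per the submitters' processing notes. How barcodes were assigned to conditions is not given in the sources used here. The members and lists were chosen with earlier results of these data known. Cells were filtered and called cycling as given above; the cut of 20 was read as raw UMIs, since read per 10000 it left 7 control and 2 coculture cells. Counts were summed over cells of a condition and compared as log2 ratios of CPM, with genes of at least 50 UMIs counted and counts under 3 set to 3. The genes ranked by ratio were to be the 12 highest and the 12 lowest, leaving out mitochondrial, ribosomal protein and sex-linked marker genes and gene models named Gm or Rik. Values of some genes that the rule names are not reported here. With 1 library per condition there was no test across samples. Binomial intervals are exact (Clopper-Pearson), those of share differences are Newcombe's and those of ratios are exact conditional intervals, all at 95%. UMIs of 1 culture are not independent cultures, so intervals cover counting error only. The libraries held 46236011 and 100452728 UMIs. Scrublet scores served only in an alternative: it called 0 of 540 and 4 of 1037 kept cells, so the 2 and 9 cells with the top scores were removed there. Cells were thinned with a fixed seed. Motifs were matched as letters in RefSeq promoters. The ratio code was tested on simulated data. Python 3.11.15, numpy 2.4.6, scipy 1.17.1, pandas 2.3.3 and scanpy 1.11.5 were used.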

Additional observations from a re-analysis of the deposited data

How the results depend on the processing

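No paired analysis was possible because each condition was 1 library. The medians of the histone (-0.58 to -0.37), stem cell (-0.75 to -0.65) and enterocyte (0.77 to 1.15) lists kept their sign under the 15 alternatives run for each, and the S part share of coculture minus control stayed negative under 10 (-10.8 to -4.78 points). The difference in cycling share ranged from -5.02 to 2.74 points over 9 alternatives. Depth limits the cycling rule, which uses raw UMIs, and the genes with few UMIs.

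The percent of cells under the rule, control then coculture, was 40.1 and 38.6 with a cut of 10 UMIs, 28.3 and 28.2 with 40, 1.56 and 0.1996 with 20 per 10000 (too few cells for further values), 43.8 and 38.8 with the strict cell filter, 43.8 and 39.0 after thinning, and 45.4 and 40.6 above 50000 UMIs. It was 39.4 and 35.2 with 2 per 10000, and 28.9 and 31.6 with no regenerative limit. The S part share was 37.0% and 29.0% with a cut of 40 UMIs, and 23.4% and 18.6% with scanpy phase scores. Genes past the fold were 1.77% upward and 2.60% downward with a minimum of 20 UMIs, and 0.545% and 0.494% with 200.

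The Paneth list median was -0.90 with a cut of 10, -1.75 with 40, -1.54 with 2 per 10000, -1.06 with median-of-ratios scaling, -0.69 with the mean of each cell, -1.32 without the top cell of each gene, -0.78 thinned and -0.97 with a minimum of 20 UMIs. The goblet median was -0.55 with a cut of 10, -0.88 with 40, -0.32 with the strict filter, -0.78 with doublets removed, -0.62 with median-of-ratios scaling, -0.26 with the mean of each cell, -0.0123 thinned and -0.63 with a minimum of 20 UMIs. The enterocyte median was 0.96 with 2 per 10000, 1.15 with median-of-ratios scaling, 0.77 thinned and 0.84 with a minimum of 200 UMIs. The G2/M list was at 0.11 with median-of-ratios scaling, which put the median of all genes at 0.

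Some alternatives were chosen after seeing the data: equal weights for both phase parts, leaving out cells with secretory markers, and the limit of 50000 UMIs. With equal weights the S phase list was at -0.0636 and the G2/M list at -0.0582. Without the secretory marker cells the Paneth median was 0.14, the goblet median 0.28, Lyz1 0.0398, Defa29 0.55, Defa30 0.31 and Spink4 0.0290. Defa22 turned to -4.33 with a cut of 40, -3.81 with 2 per 10000 and -2.28 without its top cell, and Hsd17b6 to -0.68 when thinned. Except for those that leave cells out, the cause was not tested.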
